A study of Rattus norvegicus with 47 samples.

Results

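The first blood response to middle cerebral artery (MCA) occlusion was described by setting the 8 arrays taken at 1 h against the 8 arrays taken at 0 h, which are 16 of the 47 arrays in the study. Members were the samples labelled as control and as 1 hour, and all 27596 probe sets of the array were compared. Both groups were whole blood of male spontaneously hypertensive rats (SHR), aged 16 weeks, a strain that develops high blood pressure and carries no transgene. The same 8 rats gave blood at both times, from a tail vein into heparin. The 0 h sample was drawn just before isoflurane anesthesia was induced, and 1 h was counted from occlusion. Anesthesia and surgery came before occlusion, so the draws lay more than 1 h apart. The 1 h sample was drawn while the silicon-coated thread still closed the artery, so it came before reperfusion. The experiment had no sham-operated rats. Occlusion, surgery, anesthesia, handling, elapsed time, time of day and the earlier blood draw therefore cannot be told apart in any value below. Arrays at 2, 3, 6 and 24 h entered the estimate of the spread. The 2 h means, taken after reperfusion, were set beside the 1 h means.

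Blood is a mixture of red cells, platelets and several kinds of white cell. Neutrophils leave the bone marrow and the vessel wall within minutes of stress hormones, and lymphocytes leave the circulation when glucocorticoids rise. B cells make antibody, carry the B cell receptor and present antigen on MHC class II molecules. In whole blood, fewer cells of a type and less RNA per cell cannot be told apart, and this holds for each result below.

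A value below is the log2 signal of a probe set, as the authors' mean and SD over the rats of a time point. A change is the 1 h mean minus the 0 h mean, and is called when its limma p, adjusted over all 27596 probe sets by Benjamini-Hochberg, is below 0.05. Of the 27596 probe sets, 10237 (37.1%) were called, 5997 higher (21.7%) and 4240 lower (15.4%) at 1 h. The changes were mostly small. The median size among the called was 0.29, 82.7% of them were under 0.5, and the median standard error (SE) of a change was 0.08. A change of at least 2-fold was seen in 118 probe sets that were higher (0.428%) and in 97 that were lower (0.352%), and all of them were called. The split of the calls by direction depended on the scale, because the median change over all probe sets was 0.05. Higher calls made up 58.6% of the calls as deposited, 40.0% after each time point was centred on its median (3465 higher and 5189 lower), and 51.8% after quantile normalization of the means (4133 higher and 3839 lower). The 2-fold changes are many times that shift.

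**Figure D1:**
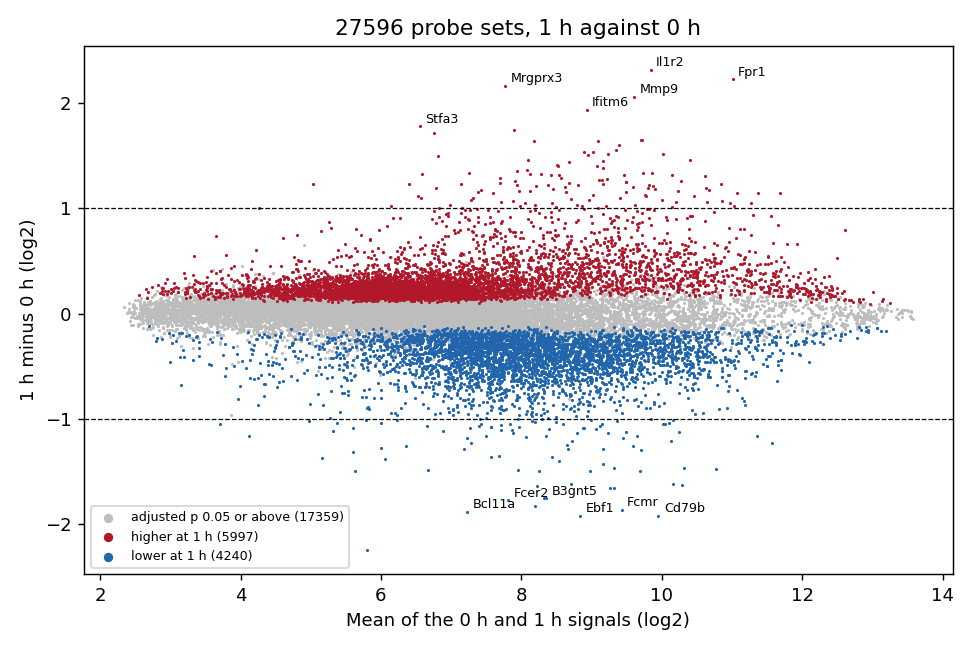
Each point is 1 of 27596 probe sets, with the mean of its 0 h and 1 h signals (log2) on the x axis and the change from 0 h to 1 h (log2) on the y axis. Red marks the 5997 called higher, blue the 4240 called lower and grey the rest. Dashed lines mark a 2-fold change, and the 6 named rises and 6 named falls with the largest changes carry their symbols.

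The largest rises included genes known from neutrophils and other myeloid cells. Il1r2, which encodes a decoy receptor that binds IL-1 without signalling (chromosome 9, 46526298 to 46566513 on rn5), had a signal of 8.68 ± 0.27 at 0 h and 10.999 ± 0.18 at 1 h (SD, n = 8). Its change of 2.32 (SE 0.14, adjusted p = 8.45e-17) was a 4.99-fold rise and the largest of any probe set. Fpr1, the receptor by which neutrophils sense formylated bacterial peptides, went from 9.90 ± 0.50 to 12.1 ± 0.23, a change of 2.23 (SE 0.16). The 0 h and 1 h ranges of 1 SD around the mean lay apart in both genes.

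Mrgprx3, a receptor of a family known from sensory neurons, went from 6.69 ± 0.20 to 8.86 ± 0.20, and its change of 2.17 (SE 0.11) had the lowest adjusted p of all, 1.21e-19, which it shared with Fcmr. Mmp9, gelatinase B, went from 8.57 ± 0.42 to 10.6 ± 0.23, a change of 2.06 (SE 0.18). These 4 were the only probe sets called with a rise of 4-fold or more. The next largest rises were those of Ifitm6 (1.94), Stfa3, a stefin that inhibits cysteine proteases (1.78), Olfm4, a granule protein of some neutrophils (1.75), and Amica1, an adhesion molecule of white cells (1.66). Among the 15 largest rises, Stfa3 differed most between rats, with an SD of 0.58 at 0 h and 0.82 at 1 h. The other rises among the 15 largest were in LOC103690059 (1.65), the kinase gene Bmx (1.64), the lactate dehydrogenase gene Ldhc (1.64), LOC679818 (1.60), Fkbp5 (1.56), the haptoglobin gene Hp (1.54) and Cd33, a sialic acid-binding receptor of myeloid cells (1.54). Rab44, a small GTPase gene, and Tlr5, the receptor for flagellin, were named for their low p, with changes of 1.40 and 0.99.

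The largest falls included genes known from B cells. Ebf1, a transcription factor that sets B cell identity, went from 9.80 ± 0.17 to 7.88 ± 0.31, a change of -1.92 (SE 0.13, adjusted p = 1.25e-15). A second Ebf1 probe set fell by 1.83. Cd79b, a signalling chain of the B cell receptor (chromosome 10 on rn5), went from 10.9 ± 0.31 to 8.99 ± 0.22, a 3.80-fold fall (-1.92, SE 0.12). Fcmr, the receptor for IgM, went from 10.4 ± 0.16 to 8.496 ± 0.18, a change of -1.86 (SE 0.10). Bcl11a, a transcription factor of lymphoid development, fell by 1.88, with an SD that was 0.40 at 0 h and 0.71 at 1 h.

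Further B cell genes among the 15 largest falls were Fcer2, the low-affinity IgE receptor (-1.78), Fcrla (-1.66), Ms4a1, which encodes CD20 (-1.66), Bank1, a scaffold of B cell receptor signalling (-1.64), and Igd (-1.63). B3gnt5, an enzyme of glycolipid synthesis (-1.76), LOC501110 (-1.75), the proton channel gene Hvcn1 (-1.62) and the class II chain RT1-Da (-1.62) were also among them. Swap70, Blnk and another Bank1 probe set were named for their low p, with changes of -1.49, -1.36 and -1.43. The ranges of 1 SD around the mean at 0 h and 1 h were apart in all 35 probe sets named for their size or p, 17 higher and 18 lower. These probe sets were chosen from the same means and SDs, so this largely follows from the choice. The largest fall of all (-2.25) was in a probe set with no symbol (chromosome 2, 11617246 to 11617602 on rn5), singled out here after its value was seen. Its signal went from 6.92 ± 0.54 at 0 h to 4.67 ± 0.96 at 1 h. The 1 h level is low, below the 5.02 of Il6 at 1 h, so the size of this fall is uncertain.

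**Figure D2:**
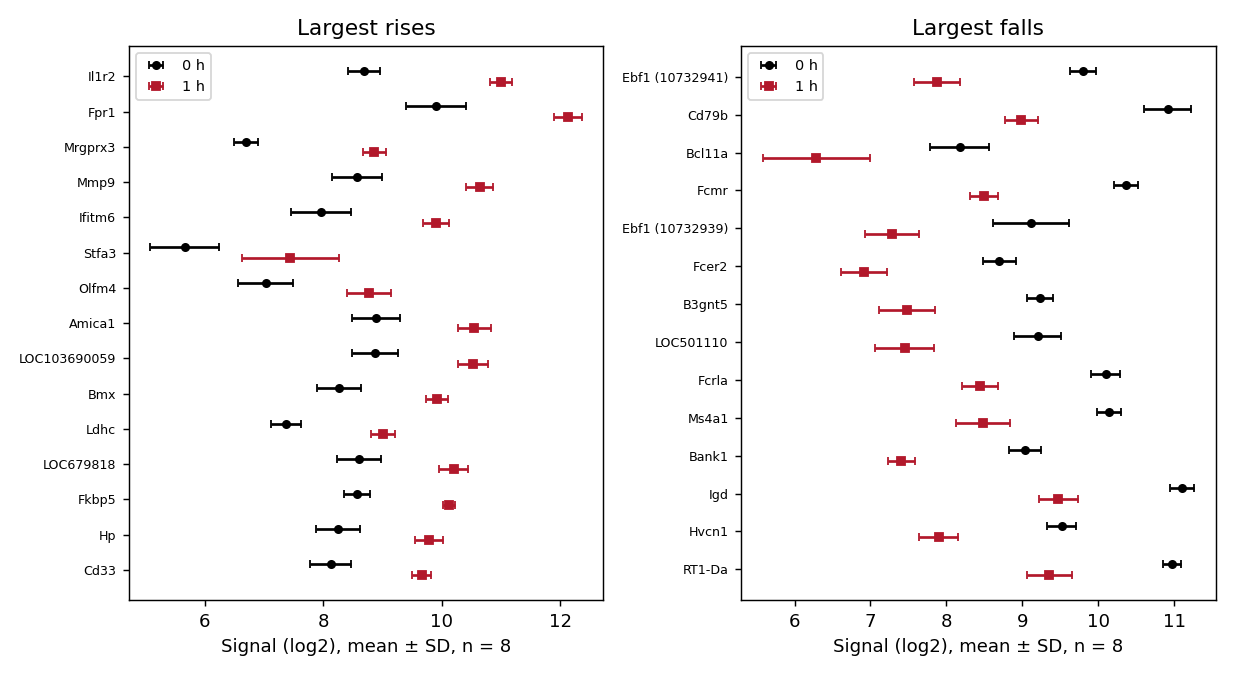
Points are the authors' means and bars their SDs over 8 rats, at 0 h (black circles) and 1 h (red squares), for the 15 largest rises (left) and 14 of the 15 largest falls (right), with the log2 signal on the x axis. The bars of the 2 time points are apart in every row, which the choice by size of change favours. Ebf1 appears with 2 probe sets.

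Markers of the cell types of blood were set beside the background of 37.1% called. The lists were chosen with earlier results of these data known, so their counts are not an independent test. Il1r2, Prok2, Cd79b and Ebf1, for example, are among the genes that the paper lists as most variable over time. Of 22 neutrophil markers measured, 20 rose (18 after centring) and none fell, with a median change of 0.95, and 10 of them changed by at least 2-fold. Besides Il1r2, Fpr1 and Mmp9, the members that rose by over 1 were Mcemp1 (1.52), the cathelicidin gene Camp (1.44), the lipocalin gene Lcn2 (1.41), Cd177 (1.37), Prok2 (1.19), the chemokine receptor Cxcr2 (1.15) and Chi3l1 (1.05). The genes of the calprotectin chains, S100a8 and S100a9, rose by 0.81 and 0.84. Elane and Mpo, genes of primary granules, rose by 0.24 and 0.22, while Prtn3, another of these, was not called (0.04, SE 0.08). Ltf, a gene of secondary granules, was at 5.86 ± 0.14 and 5.89 ± 0.09 and was not called. Taken on the linear scale and summed over the 22 markers, the mean level went from 14.6 to 15.6 on the log2 scale. Several gene groups described further on also hold genes of neutrophils, and the part of that rise in them was not tested.

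Of 19 B cell markers, 17 fell and none rose, with a median change of -1.05 and 10 of at least 2-fold. Pax5, a transcription factor that keeps B cell identity (-0.06, SE 0.06, adjusted p = 0.44), and Cd37 (-0.08, SE 0.12, adjusted p = 0.64) were the 2 not called. The summed level of the 19 went from 13.8 to 12.6. MHC class II genes moved alongside, as 9 of 10 fell and none rose, with a median of -0.96. RT1-Da was at 10.97 ± 0.12 at 0 h and 9.35 ± 0.30 at 1 h. Cd74, the invariant chain that guides class II molecules (-1.23), and Ciita, their master regulator (-1.14), were also lower. RT1-Bb was the class II member not called (-0.09), and it passed the test after centring.

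T cell markers fell by less. Of 21, 17 were lower and 1 was higher, with a median of -0.36 and none of 2-fold. Cd8b, a chain of the CD8 co-receptor, fell by 0.68, from 9.29 ± 0.17 to 8.61 ± 0.18, and Cd3d by 0.65. Il7r, the receptor for a T cell survival cytokine, was the exception, with a rise of 0.36 (SE 0.11, adjusted p = 0.00991). NK and cytotoxic cell markers were close to the background, with 2 of 14 higher and 3 lower and a median of -0.14. Among them Klrd1 and Klrk1 fell by 0.42 and 0.40, and Ncr3 rose by 0.43. Gzmb was on this list but is not among the 14, because its probe set has more than 1 symbol. That probe set, for Gzmbl3 and Gzmb, rose by 1.10 (SE 0.17, adjusted p = 1.08e-06). Klrd1 lost its call in 3 of the alternative settings, those of an ordinary test, of separate spreads and of quantile normalization.

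Monocyte markers did not move one way. Of 15, 8 fell and 2 rose, with a median of -0.28. Ly86, the partner of the Toll-like receptor homologue CD180, fell from 10.2 ± 0.20 to 8.96 ± 0.31 (-1.26, SE 0.14), and the transcription factor Klf4 from 9.62 ± 0.17 to 8.52 ± 0.22 (-1.10, SE 0.10). Fcgr1a, a high-affinity IgG receptor, rose by 0.41. Lyz2 rose by 0.13, a call lost after centring, with quantile normalization of the means and with the spread taken from 0 h and 1 h alone. Cd14, the co-receptor for endotoxin, was not called (0.22, SE 0.16, adjusted p = 0.266). Of 10 dendritic cell markers, 5 fell and 1 rose. Irf8 (-0.81) and Siglech (-0.80) fell most, and Clec9a was higher by 0.75.

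Markers of cells without a nucleus were higher by small amounts. Of 28 erythroid markers, 20 rose (16 after centring) and none fell, with a median of 0.32. The largest rise was in Gata1, the erythroid transcription factor (0.67). The globin genes were not among them. Hba1 was at 13.57 ± 0.10 at 0 h and 13.53 ± 0.10 at 1 h, and Hbb at 13.5 at both times, close to the top of the array's range. Of 12 platelet markers, 7 rose (6 after centring) and none fell, with a median of 0.32. Gp5, a membrane glycoprotein gene, was higher by 0.54. The abundant platelet chemokine gene Pf4 was not called (0.05, SE 0.05). Of 13 markers of basophils, mast cells and eosinophils, 3 were called higher, a share near the 21.7% of all probe sets, and after centring 2 were higher and 1 lower. The higher ones included Prg2 (0.56) and Alox15 (0.47). Among markers of brain cells 6 of 15 rose, among them Gfap (0.38), but only 3 passed the test after centring, and Mbp was not called. Of 12 markers of vessel, skin, muscle and liver, 7 rose and 1 fell (5 and 1 after centring). Vwf (0.40) and Cldn5 (0.23) rose and Tie1 fell by 0.36.

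**Figure D3:**
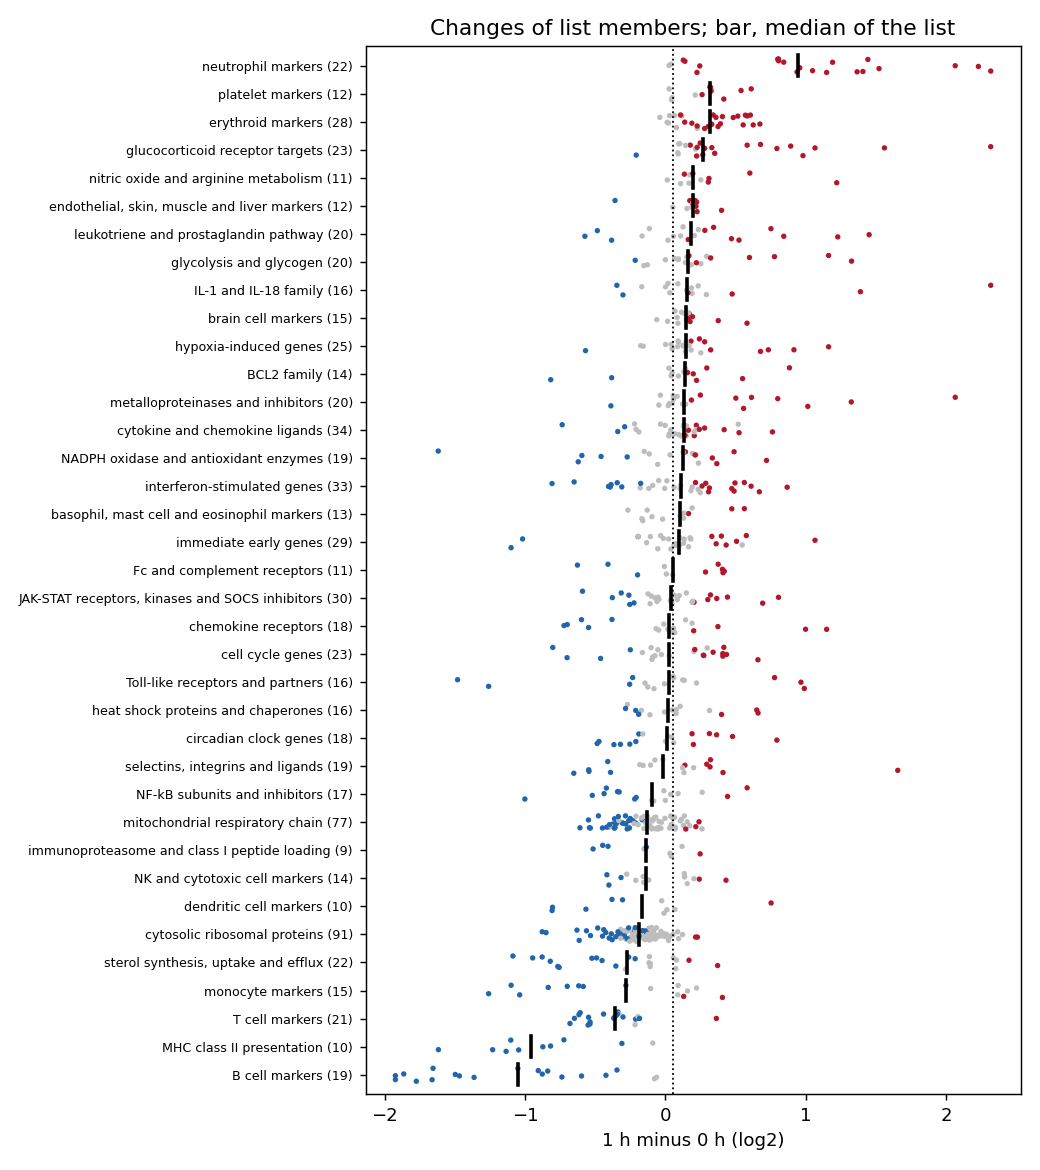
Each point is a gene of 1 of 37 lists, plotted by its change from 0 h to 1 h (log2), red where called higher, blue where called lower and grey where not called. Black bars are list medians, the dotted line is the median of all 27596 probe sets (0.05), and the number of genes measured follows each name. Neutrophil markers lie at the top with a median of 0.95, and MHC class II genes and B cell markers at the bottom with -0.96 and -1.05.

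Glucocorticoids act through a nuclear receptor that switches on genes within an hour. Of 23 genes known as targets of it, 16 rose and 1 fell, against 21.7% and 15.4% of all probe sets, with a median of 0.27. After centring, 12 rose and 1 fell. Fkbp5, a co-chaperone of the receptor that glucocorticoids induce, went from 8.56 ± 0.22 to 10.1 ± 0.10 (1.56, SE 0.10, adjusted p = 1.50e-16), a 2.95-fold rise. Il1r2 belongs to this list and to the neutrophil list. Dusp1, a phosphatase that turns off MAP kinases, rose by 1.07, the transcriptional repressor gene Zbtb16 by 0.98, the kinase gene Sgk1 by 0.89 and the clock gene Per1 by 0.79. Zbtb16 and Sgk1 were named after their values were seen. Tsc22d3, which encodes GILZ, was not called (0.21, SE 0.09, adjusted p = 0.0603). Nr3c1, the receptor gene itself, was the member that fell (-0.21), and it lost its call in 5 of the alternative settings.

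Clock genes were split, with 6 of 18 higher, 7 lower and a median of 0.01 (72.2% called, against 37.1% of all probe sets). Per1 went from 6.73 ± 0.25 to 7.53 ± 0.19, and Csnk1e, a kinase that marks period proteins, rose by 0.48. Bhlhe40 and Clock fell by 0.49 and 0.47.

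Immediate early genes, which cells switch on without new protein, were close to the background. Of 29, 7 rose, 3 fell and 19 were not called, so that 34.5% were called against 37.1% of all probe sets. After Dusp1, Ier3 had the largest rise (0.58). Nr4a1, an orphan nuclear receptor gene, fell by 1.02 from 9.87 ± 0.16, and Klf4 fell as given above. Egr1 (0.55, SE 0.24, adjusted p = 0.0727) varied widely between rats at 0 h, with an SD of 0.76.

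The lists of the IL-1 and IL-18 family, Toll-like receptors, cytokine ligands and JAK-STAT signalling had between 37.5% and 43.8% of their members called, against 37.1% of all probe sets. In the IL-1 and IL-18 family, 4 of 16 rose and 2 fell (37.5% called), and after centring 3 rose and 3 fell. Il18rap, a chain of the IL-18 receptor, rose by 1.39, from 8.47 ± 0.25 to 9.86 ± 0.20, while Il18 itself fell by 0.35 and Irak3, an inhibitor of the pathway, by 0.30, a call lost with quantile normalization of the means. Il1b rose by 0.48 (SE 0.11), and Il1rn was not called (0.19, adjusted p = 0.0662). Of 16 Toll-like receptors and partners, 3 rose and 4 fell (43.8% called). Tlr5 went from 7.71 ± 0.14 to 8.69 ± 0.14 and Tlr2 from 7.94 ± 0.23 to 8.90 ± 0.22. Cd180, a Toll-like receptor homologue of B cells, fell by 1.48 from 11.5 ± 0.21, and its partner Ly86 fell with it.

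Among 34 cytokine and chemokine ligands, 10 rose and 3 fell (38.2% called), but 4 rose and 5 fell after centring. Osm, which encodes oncostatin M, rose by 0.76 and Ccl6 by 0.52. Cxcl16 fell by 0.74. Il6 fell by 0.34 at a low signal, from 5.36 ± 0.16 to 5.02 ± 0.15. Tnf was not called (0.04, SE 0.19). Chemokine receptors were higher in 4 of 18, a share near the 21.7% of all probe sets, and lower in 5, a share above the 15.4% of all probe sets. In all 9 of the 18 were called. Cxcr2 and Ccr1, which guide neutrophils and monocytes, rose by 1.15 and 1.00, and Ccr6 and Cx3cr1 fell by 0.72 and 0.70. Among 30 genes of JAK-STAT signalling, 7 rose and 6 fell (43.3% called). The G-CSF receptor gene Csf3r (0.81) and Csf2rb (0.69) rose most, and the inhibitor gene Socs2 (-0.59) and Stat4 (-0.38) fell most.

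NF-kB genes were more often lower, with 8 of 17 against 15.4% of all probe sets, and 2 were higher. Rel, a subunit known from lymphocytes, fell from 10.4 ± 0.14 to 9.35 ± 0.29 (SE of the change 0.10, adjusted p = 7.68e-11), and Birc3 fell by 0.52. The 2 that rose were the inhibitor genes Nfkbia (0.58) and Nfkbiz (0.44).

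Interferon-stimulated genes were split, with 12 of 33 higher and 8 lower (60.6% called, against 37.1% of all probe sets). Ifitm3 (0.87) and Ifit3 (0.67) rose most, and Mx2 (-0.81) and Mx1 (-0.65) fell most. In the immunoproteasome and class I loading list 4 of 9 fell, against 15.4% of all probe sets, led by Psme2 (-0.52) and Psmb10 (-0.45), and Tapbp rose by 0.25, a call lost after centring.

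Lists of enzymes, adhesion molecules and receptors that leukocytes use had between 10 of 20 and 8 of 11 (72.7%) of their members called, against 37.1% of all probe sets. Among 20 metalloproteinases and inhibitors, 9 rose and 1 fell, with Mmp9 and Mmp25 (1.32) first and Adam17 (-0.39) the one that fell. In the leukotriene and prostaglandin pathway 9 of 20 rose and 3 fell. Alox5, the enzyme that starts leukotriene synthesis, went from 8.43 ± 0.33 to 9.88 ± 0.18 (1.45, SE 0.14), and its partner Alox5ap rose by 1.23. Ptges3 and Cysltr1 fell by 0.49 and 0.57. In nitric oxide and arginine metabolism 6 of 11 rose (4 after centring) and none fell. Nos2, the inducible nitric oxide synthase, was at 7.77 ± 0.23 and 8.99 ± 0.24 (1.22, SE 0.12), and Ass1 was higher by 0.60. Among adhesion molecules 6 of 19 rose and 5 fell (4 and 8 after centring). Itgam rose by 0.41, while the sphingosine phosphate receptor gene S1pr5 and the integrin gene Itga4 fell by 0.65 and 0.55. Of 19 genes of the NADPH oxidase and antioxidant enzymes, 6 rose and 5 fell (3 and 5 after centring). The oxidase subunit gene Ncf4 rose by 0.49, and Gclc, an enzyme of glutathione synthesis, fell by 0.62. Of 11 Fc and complement receptors, 5 rose and 3 fell, with Fcgr2a higher by 0.42, Fcgr3a lower by 0.63 and C3ar1 lower by 0.41.

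In the BCL2 family 6 of 14 rose and 2 fell (57.1% called, against 37.1% of all probe sets), and after centring 4 rose and 2 fell. The pro-death gene Pmaip1 (0.88) and the protective gene Bcl2l1 (0.55) rose, and the protective genes Bcl2a1 (-0.82) and Bcl2 (-0.38) fell.

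Metabolic lists differed from each other. Sterol genes were lower in 12 of 22, against 15.4% of all probe sets, and higher in 2, with a median of -0.27. Insig1, a sensor of sterols, went from 9.42 ± 0.25 to 8.34 ± 0.24 (-1.09, SE 0.14), and the synthesis gene Msmo1 fell by 0.95. Glycolysis genes were higher in 7 of 20 and lower in 1 (40.0% called). Hk3, a hexokinase of myeloid cells, went from 5.92 ± 0.19 to 7.25 ± 0.09, a rise of 1.33, and the glucose transporter gene Slc2a3 rose by 1.16. Gpi fell by 0.22. Of 25 genes induced by low oxygen, 8 rose and 1 fell (36.0% called, near the 37.1% of all probe sets), and after centring 7 rose and 3 fell. Egln3, an oxygen-sensing hydroxylase, rose by 0.92, Pdk1 fell by 0.57, and Hif1a was not called (0.16, SE 0.08, adjusted p = 0.129). Mean signals of the neutrophil markers rose beside these lists, as given above.

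Ribosomal protein genes were lower in 31 of 91 and higher in 2, with a median of -0.19, and Rps27 (-0.88) and Rpl22l1 (-0.85) fell most. The mitochondrial respiratory chain was lower in 26 of 77 and higher in 3, with a median of -0.13, led by Sdhc (-0.61) and Cox7c (-0.55). The lower share in both exceeded the 15.4% of all probe sets. Heat shock genes were higher in 3 of 16 and lower in 3 (37.5% called), and after centring 2 were higher and 5 lower, with Dnaja1 at 0.66 and Bag3 at -0.28. Among cell cycle genes 9 of 23 rose and 4 fell (56.5% called, against 37.1% of all probe sets), and after centring 6 rose and 4 fell. Tyms (0.66) and Bub1 (0.44) rose, and the replication genes Mcm3 (-0.80) and Pcna (-0.70) fell.

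Probe sets on microRNA hairpins, which measure transcript over the hairpin and not a mature arm, numbered 260. Of these, 60 were higher (23.1%, close to the 21.7% of all probe sets) and 3 lower (1.15%, against 15.4%), and after centring 35 were higher and 10 lower. They were set out after their values were seen. Mir223, a microRNA of neutrophils, went from 9.66 ± 0.48 to 11.1 ± 0.25 (1.47, SE 0.16, adjusted p = 5.11e-10). Mir292 rose by 1.24, Mir290 by 0.92 and Mir291a by 0.71. These 3 lie together on chromosome 1, and on rn5 the gap from the end of Nlrp12 to them is 3404 to 3990 bases. Nlrp12, an innate immune receptor gene on the opposite strand, rose by 1.41, and its part in the hairpin signals was not tested. Mir29a rose by 0.75 at a low signal, from 4.43 ± 0.45 to 5.18 ± 0.27. RefSeq (GRCr8) held a hairpin for 233 of the 260 symbols. The mature sequences of the 5 hairpins named here are shown to place them in seed families, with the seed (bases 2 to 8) in capitals.
rno-miR-223-3p: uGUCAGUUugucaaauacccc
rno-miR-223-5p: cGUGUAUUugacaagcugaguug
rno-miR-290: uCUCAAACuaugggggca
rno-miR-292-5p: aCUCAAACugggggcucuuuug
rno-miR-292-3p: aAGUGCCGccagguuuugagugu
rno-miR-291a-3p: aAAGUGCUuccacuuugugugcc
rno-miR-291a-5p: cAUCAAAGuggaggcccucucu
rno-miR-29a-3p: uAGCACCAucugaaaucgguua
rno-miR-29a-5p: aCUGAUUUcuuuugguguucag
The seed CUCAAAC was shared by miR-290 and miR-292-5p, and the other 7 each had a seed of their own.

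Promoters from RefSeq (GRCr8), of 250 bases before the start and 50 after it, were searched on both strands for short motifs, as a description. A promoter was found for 12661 of 19418 symbols measured. The octamer ATTTGCAT, known from B cell genes, was in 1.59% of these, in 4 of 68 genes that rose by at least 2-fold (5.88%) and in 2 of 52 that fell by as much (3.85%). Among B cell markers with a promoter it was in 2 of 11 (18.2%). The motif TTGCNNAA of C/EBP factors, which act in myeloid cells and which was added after the values were seen, was in 13 of 68 risers (19.1%), 5 of 52 fallers (9.62%) and 10.0% of all measured. The TATA box TATAAA was in 19.1%, 11.5% and 10.5%. The E-box CACGTG was in 7.35%, 3.85% and 8.79%, and the AP-1 site TGANTCA in 11.8%, 5.77% and 6.55%. A glucocorticoid response element, written as AGAACA and TGTTCT with 3 bases between, was in none of the 12661. No match says only that these letters are not in this window.

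Octamers are shown for the 4 named genes that have one before the start, with the motif in capitals. Blnk, an adaptor of the B cell receptor, and Ccr6 fell, while Fkbp5 and Ass1 rose, so the same 8 bases stood before genes of both directions. They lie at chr1:249770685-249770752, chr1:55046182-55046249, chr20:6543750-6543805 (all minus strand) and chr3:35149480-35149546 (plus strand).
Blnk: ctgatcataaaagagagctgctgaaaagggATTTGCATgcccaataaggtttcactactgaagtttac
Ccr6: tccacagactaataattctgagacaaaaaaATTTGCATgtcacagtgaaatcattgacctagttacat
Fkbp5: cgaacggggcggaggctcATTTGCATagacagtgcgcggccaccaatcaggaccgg
Ass1: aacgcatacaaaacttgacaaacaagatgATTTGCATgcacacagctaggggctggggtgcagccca

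The cyclic AMP response element TGACGTCA was in 1.47% of risers, 3.85% of fallers and 2.69% of all measured. It stood 124 bases before the start of Dusp1, which rose by 1.07, and 162 bases before that of Il6, which fell by 0.34. The interferon-stimulated element was searched as GAAA and GAAA with 2 bases between and was in 2.94% of risers, 1.92% of fallers and 3.34% of all measured. Ifit3 and Ifitm3, which rose, and Psme2, which fell, had it within 53 bases of the start, as did Psmb10, which fell, and Tapbp, which rose and lost its call after centring. The stretches of the first 3, and those of Dusp1 and Il6, are shown because they set the same motif beside opposite changes, and they lie at chr10:17184699-17184766 (plus strand), chr4:5894700-5894767 (minus), chr1:241527252-241527321 (plus), chr1:205541763-205541832 (minus) and chr15:33052765-33052834 (minus).
Dusp1: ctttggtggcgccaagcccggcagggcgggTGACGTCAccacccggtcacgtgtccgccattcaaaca
Il6: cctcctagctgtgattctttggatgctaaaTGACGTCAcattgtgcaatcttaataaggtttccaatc
Ifit3: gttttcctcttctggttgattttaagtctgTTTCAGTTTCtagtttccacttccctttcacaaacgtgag
Ifitm3: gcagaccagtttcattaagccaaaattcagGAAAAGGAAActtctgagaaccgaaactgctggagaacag
Psme2: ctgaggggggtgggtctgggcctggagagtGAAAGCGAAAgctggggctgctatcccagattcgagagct

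The 2 h means were set beside the largest changes. Reperfusion under renewed anesthesia came between the 1 h and 2 h samples, and its part in this step was not tested. From 1 h to 2 h, 2422 of all 27596 probe sets were called (8.78%), 1287 higher (4.66%) and 1135 lower (4.11%). Of the 35 probe sets named for size or p, 29 were called, and each of these was further from 0 h at 2 h than at 1 h. They were 15 of the 17 that rose and 14 of the 18 that fell. Cd33 rose by a further 0.97 and Hp by 0.96, and Ms4a1 fell by a further 0.90. Swap70 differed by 0.01 between 1 h and 2 h. The 1 h samples enter both steps, so a 1 h mean that lies low by chance makes the first step smaller and the second larger.

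**Figure D4:**
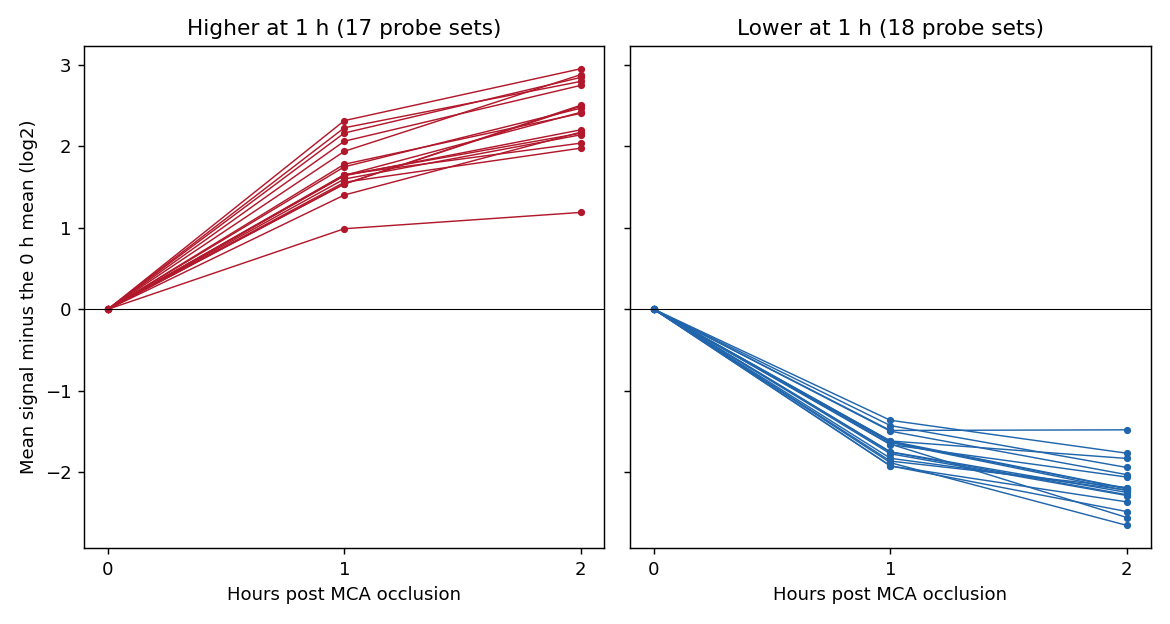
Lines join the mean signals at 0, 1 and 2 h post MCA occlusion, each minus the 0 h mean (log2), for the 17 probe sets that rose (left, red) and the 18 that fell (right, blue) among the 35 named for size or p. The lines go on in the same direction to 2 h, apart from that of Swap70, which is level. Reperfusion came between the 1 h and 2 h samples.

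A few named genes turned between 1 h and 2 h. Birc3, an inhibitor of apoptosis, was at 9.11 at 0 h, 8.58 at 1 h and 9.49 at 2 h, a step of 0.90 (adjusted p = 2.88e-07). Il7r was at 10.2, 10.6 and 9.96, a step of -0.62 (adjusted p = 0.000134). Pmaip1 was at 6.43, 7.32 and 6.84, and Tyms at 9.30, 9.96 and 9.43, and both steps back were called. Tie1, Gpi and Sdhc, which had fallen at 1 h, were higher at 2 h by 0.32, 0.36 and 0.30.

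Over all probe sets the SD at 1 h was 0.982 times that at 0 h at the median. Among the 118 probe sets at least 2-fold higher, the SD was smaller at 1 h in 99, with a median ratio of 0.715. Among the 97 at least 2-fold lower it was larger at 1 h in 67, with a median ratio of 1.27. Fpr1 went from an SD of 0.50 to 0.23 and Fkbp5 from 0.22 to 0.10, while Ms4a1 went from 0.16 to 0.35. These ratios were not tested.

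**Figure D5:**
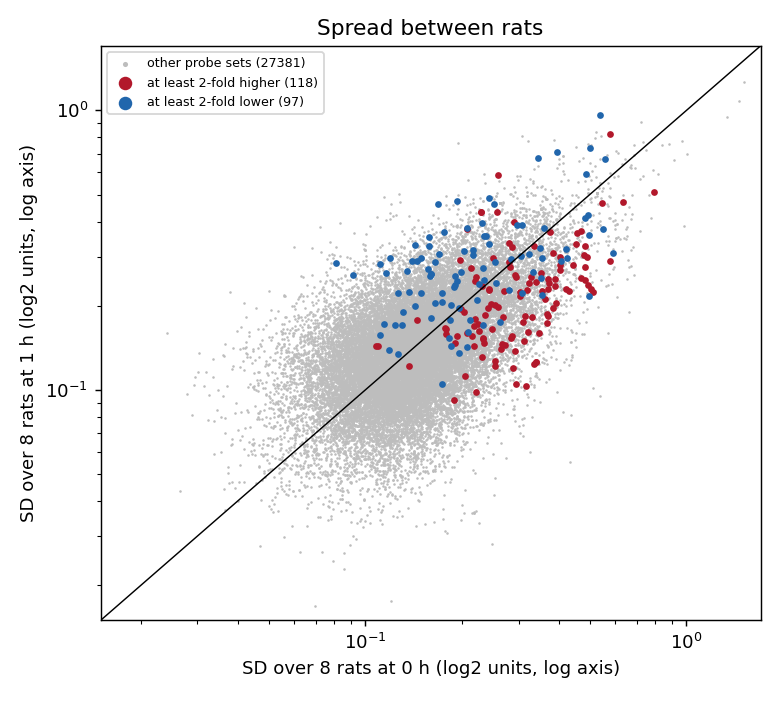
Each point is a probe set, with its SD over 8 rats at 0 h (x axis) and 1 h (y axis), both in log2 units on log axes, and the line marks equal SDs. Most of the 118 probe sets at least 2-fold higher (red) lie below the line, and most of the 97 at least 2-fold lower (blue) lie above it.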

How the data were processed

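Whole blood RNA of 8 SHR was hybridized to Affymetrix RaGene 1.0 ST arrays, 8 arrays at each time point except 7 at 6 h. The authors summarized each array by RMA to a log2 signal per probe set, and deposited the mean and the SD of each time point on that log2 scale. RMA quantile normalizes the arrays, so a change is relative to all other probe sets. Symbols and positions are those of the deposited table (rn5): 20437 probe sets had 1 symbol, 969 several and 6190 none. The deposited table also holds 47 columns of single arrays, named only by running numbers from 1 to 48 without 17. No label gives these numbers, so the columns were not used, and none was assigned to a rat by its order or values. The authors' fold changes and p-values in the table were not used either. The number of arrays limits the precision.

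The contrast of 1 h with 0 h was computed from these means and SDs and the array numbers by the moderated test of limma 3.58.1 in R 4.3.3. The spread was pooled over the 6 time points (41 residual degrees of freedom), the test was two-sided, and p-values were adjusted over 27596 probe sets with a threshold of 0.05. The fit takes the arrays as independent, although each rat was sampled repeatedly. It was tested on simulated data for this contrast, where only 100 of 27596 probe sets were changed by 1 and 100 by 0.5 (log2). It called 99 and 87 of these, and 6.06% of its calls were false. In the real data 37.1% of probe sets were called, so these rates need not hold there. The effect of repeated sampling of the rats was not tested. RNA was worked up in randomized batches, which the columns used do not identify, so no batch was fitted.

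Named genes had 1 symbol and were called: the 15 largest rises, the 15 largest falls, the 15 with the lowest p, and the 2 largest rises and falls of each of 37 gene lists. Genes that met the rule but are not named are not reported here. Markers of cell types could be named whatever their change. A list gene with several probe sets was taken at the one with the highest mean. Where neither part of the rule applies, the gene was named after its values were seen. The gene lists and comparisons were chosen with earlier results of these data known. Alternatives covered the spread, the test, the scaling and a filter that left out the dimmest 25% of probe sets. Sequences are from RefSeq tables on GRCr8, matched by symbol, and were set beside no rn5 coordinates.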

Additional observations from a re-analysis of the deposited data

Results flagged for a closer look

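The change from 0 h differed between 1 h and 2 h, by limma's test of 2 h against 1 h, in 29 of the 35 probe sets named for the size or p of their 1 h change. In each of the 29 the 2 h mean lay further from 0 h than the 1 h mean. Reperfusion under renewed anesthesia came between these samples, and its part was not tested. The same test called 8.78% of all 27596 probe sets, and the 35 were chosen by their 1 h values, which enter this difference with the opposite sign. Values below are 2 h minus 1 h on the log2 scale, for 28 of the 29.

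The differences among genes that rose were Cd33 (0.97), Hp (0.96), Ifitm6 (0.94), Bmx (0.78), Rab44 (0.77), Olfm4 (0.72), Mmp9 (0.69) and Mrgprx3 (0.68). Smaller ones were those of Il1r2 (0.64), Fpr1 (0.57), Ldhc (0.56), LOC679818 (0.54), LOC103690059 (0.52), Fkbp5 (0.42) and Tlr5 (0.20). Tlr5 had the smallest step, with an adjusted p of 0.0477.

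Among genes that fell, the differences were Ms4a1 (-0.90), Bcl11a (-0.77), Bank1 (-0.59 in probe set 10826969), Hvcn1 (-0.58), Igd (-0.58) and Ebf1 (-0.56). The others were those of B3gnt5 (-0.52), Bank1 (-0.51 in probe set 10826956), Fcer2 (-0.51), Cd79b (-0.44), Blnk (-0.40), Fcrla (-0.40) and Fcmr (-0.32). Bcl11a had the highest adjusted p of these, 0.0479. Centring each time point on its median left the number called at 29.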

How the results depend on the processing

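Over 8 alternatives of the spread, the test, the scaling and the filter on dim probe sets, the number called ranged from 7972 to 10240, beside 10237 as reported. The count of higher probe sets was 3465 with centring on the median, beside 5997, and was 4133 to 6027 in the other alternatives. The construction of the setting shows the cause, since centring takes 0.05 off each change. Counts of 2-fold changes ran from 101 to 130 higher and from 84 to 114 lower. No probe set that met the naming rule changed direction. Of the 143 probe sets that met the naming rule, not all of which are described in the text, 8 lost their call with centring, 8 with quantile normalization of the means, 6 with an ordinary test on 0 h and 1 h alone, 6 with a separate spread for each time point, and 1 or 2 in the other settings of the spread, while the filter on dim probe sets left Il6 out. NK and cytotoxic markers called fell from 5 to 3 in 3 settings, and brain cell markers from 6 to 3 with centring and to 2 with quantile normalization. No paired analysis was possible because the deposited means pool the 8 rats and the names of the single-array columns give no rat or time point, and columns were not assigned by their order or values. For the same reason leaving out single rats was not run, so how far the calls depend on pairing or on 1 rat was not tested. Values over background of single arrays were not assessed.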

Other observations

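Olfactory receptor genes, which blood cells are not known for, served as a look at probe sets of low signal, chosen after the data were examined. Of 1156 such probe sets, 133 were called higher (11.5%) and 19 lower (1.64%), with a median change of 0.06, against a median of 0.05 over all probe sets. After centring on the median, 52 were higher and 38 lower, and their median was 0.01. Of the 6190 probe sets with no symbol, 1126 were higher (18.2%) and 535 lower (8.64%), against 21.7% and 15.4% of all probe sets. After centring, 584 were higher and 697 lower.

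Some 2-fold changes lie in probe sets with more than 1 symbol and so outside the rule for named genes. The probe set for Cd79al and Cd79a, the other signalling chain of the B cell receptor, went from 10.4 to 8.94, a change of -1.49. That for Gzmbl3 and Gzmb, the granzyme B genes, went from 6.02 to 7.13. Rgs1, a regulator of G protein signalling with 1 symbol, rose by 1.32.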
